A study of Schizosaccharomyces pombe with 4 samples.

Results

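The small RNAs described here come from the ribosomal RNA repeats of fission yeast (Schizosaccharomyces pombe), the tandem units on chromosome III that encode the 18S, 5.8S and 28S rRNAs. The members were chosen by position alone, as every deposited region on bases 1 to 23130 or 2440994 to 2452883 of the chromosome. They were 200 of 4511 regions in 3 files, of which 159 of 4012 were windows of the comparison between strains, 22 of 309 were regions of the ABP1d list and 19 of 190 were regions of the WT list. Total RNA came from exponentially growing cells in rich medium with no treatment, and 2 strains were sequenced, a wild type (WT) and a strain whose genotype is given only as ABP1d, with 2 small RNA libraries labelled for each. Abp1 is a homolog of the centromere protein CENP-B, and the series title names repression of cryptic transcription from the rRNA gene repeats as the subject. Each deposited value is 1 number per strain, pooled over its libraries, and the labels do not say whether those came from separate cultures. The spread between libraries is therefore unknown, and no test between strains was made. The annotation names the Abp1 gene cbp1 (chromosome II, 3510427 to 3512370). It overlapped 0 windows and 0 regions of either list, so the genotype could not be checked in these files.

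In eukaryotes RNA polymerase I transcribes each unit as 1 long precursor, from which nucleases and small nucleolar RNAs release the 18S rRNA of the small ribosomal subunit and the 5.8S and 28S rRNAs of the large subunit. Internal transcribed spacer 1 (ITS1) separates 18S from 5.8S, ITS2 separates 5.8S from 28S, and both are discarded during processing. Between the 28S end of 1 unit and the 18S start of its neighbour lie the external transcribed spacers and the non-transcribed spacer, which holds the terminators and the promoter. Their boundaries are not annotated in the assembly used, so that stretch is treated whole and called the spacer here.

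The unit nearest the left end with complete genes is described first. It is read from the minus strand and holds 28S at 6057 to 9541, 5.8S at 9842 to 10006 and 18S at 10419 to 12260, with the spacer at 1391 to 6056. An incomplete 18S gene lies at 1 to 1390, and its 1 window (18 to 1433) had 1251512 reads in ABP1d and 1767893 in WT, nearly those of the complete gene. A second left unit follows after 10870 bases, and another complete unit starts at 2440994 on the plus strand of the right end. The sequences below are the stretches of the 3 genes on which the results turn, as the annotated strand of the assembly ASM294v3, with the annotated gene in capitals and flanking bases in lower case.
18S, region of the WT list (chr3:11976-12266, minus strand): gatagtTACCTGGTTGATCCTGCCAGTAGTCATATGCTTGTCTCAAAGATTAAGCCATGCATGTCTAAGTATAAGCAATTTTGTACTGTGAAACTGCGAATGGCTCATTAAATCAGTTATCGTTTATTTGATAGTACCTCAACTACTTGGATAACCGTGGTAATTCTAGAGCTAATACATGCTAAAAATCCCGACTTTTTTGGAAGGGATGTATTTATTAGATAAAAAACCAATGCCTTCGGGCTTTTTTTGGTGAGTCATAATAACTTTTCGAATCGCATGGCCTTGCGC
5.8S, window of the comparison (chr3:9816-10009, minus strand): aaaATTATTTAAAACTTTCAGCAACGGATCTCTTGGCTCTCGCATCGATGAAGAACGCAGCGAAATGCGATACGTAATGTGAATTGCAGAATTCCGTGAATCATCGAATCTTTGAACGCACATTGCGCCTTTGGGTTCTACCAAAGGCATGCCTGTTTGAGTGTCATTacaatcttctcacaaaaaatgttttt
28S, region of the WT list (chr3:9280-9544, minus strand): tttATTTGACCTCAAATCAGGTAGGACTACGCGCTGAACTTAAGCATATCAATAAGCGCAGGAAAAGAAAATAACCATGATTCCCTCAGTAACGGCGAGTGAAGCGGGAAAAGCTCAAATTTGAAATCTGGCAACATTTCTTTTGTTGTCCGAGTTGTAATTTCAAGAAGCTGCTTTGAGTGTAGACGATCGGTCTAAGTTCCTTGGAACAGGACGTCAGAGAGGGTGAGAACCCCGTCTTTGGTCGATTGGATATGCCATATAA

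The values resolved into whole reads for 100% of the regions, and their steps gave totals of 23817270 for ABP1d and 14466014 for WT. No source used here says which reads these totals include, and the depth of each library is unknown. Levels are given as reads, as RPM (reads per 1000000 of the strain total) or as RPKM (RPM per kilobase of the window), and intervals are exact 95% binomial intervals on reads that cover counting error only. A repeat's reads are entered at every copy that they match, so 1 unit is described at a time. Windows holding an unbroken A or T stretch of 15 or more bases, 4 of the 159, were set aside, and all 4 were lower in ABP1d. In the strain lists 6 of the 22 ABP1d regions and 3 of the 19 WT regions hold such a stretch, and every other listed region lies on an rRNA gene. Of the 155 others, 147 were higher in ABP1d (94.8%) and 8 lower, against 82.9% higher among all 4012 listed windows. Because copies carry the same reads, these 155 windows are about 3 views of 1 repeat and not separate measurements. In a bulk culture, fewer cells with a small RNA and less of it per cell cannot be told apart.

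Within 1 repeat the strains distributed their reads differently over the genes. Windows on 18S held 42.8% of the repeat's reads in ABP1d (95% interval 42.8 to 42.9) and 87.1% in WT (87.1 to 87.2). The 28S window held 42.3% in ABP1d (42.3 to 42.4) and 1.50% in WT (1.49 to 1.52). In ABP1d the 18S and 28S genes thus carried nearly equal numbers of reads, whereas in WT almost all lay on 18S. The 5.8S window held 14.7% in ABP1d and 11.3% in WT. The spacer windows without an A/T run held 0.127% in ABP1d and 0.0311% in WT. The internal spacers held 0.00832% and 0.00428% (ITS1) and 0.00126% and 0.000197% (ITS2). The A/T-run window of the spacer, with 30977 reads in ABP1d and 21574 in WT, is left out of all these shares and of the repeat's total. The whole repeat took 123087 RPM in ABP1d and 140374 RPM in WT, a value 1.14-fold higher in WT (1.14 to 1.14). The size of that difference depends on the scaling, and it reached 4.43-fold with snRNA windows centred, whereas the shares within the repeat do not depend on it.

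**Figure D1:**
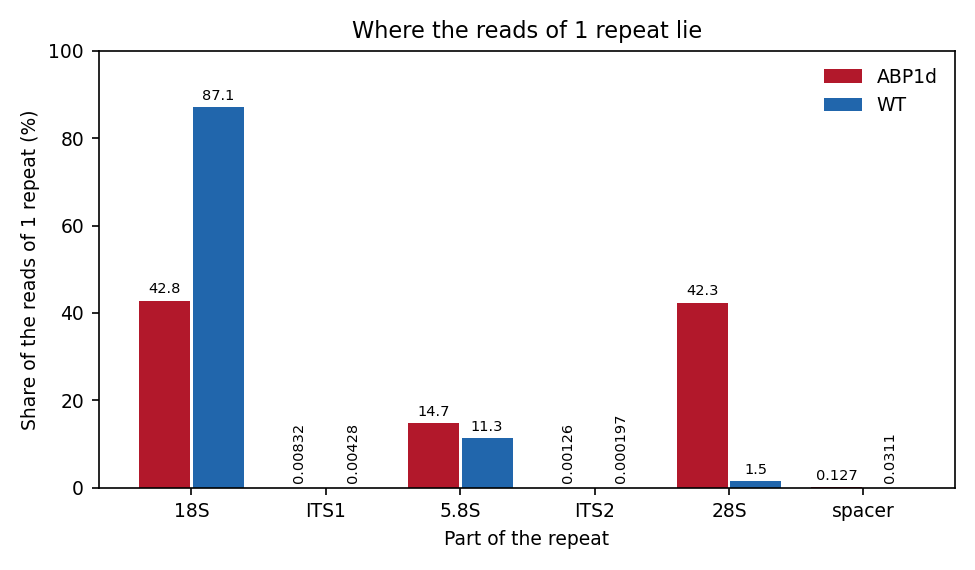
Share of the reads of 1 repeat (y axis, percent, from 0) on each gene, internal transcribed spacer (ITS1, ITS2) and the spacer (x axis), for the pooled ABP1d libraries (red) and the pooled WT libraries (blue), without A/T-run windows. The 28S bar stands at 42.3% in ABP1d and 1.50% in WT, and the 18S bar at 42.8% and 87.1%.

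**Figure D2:**
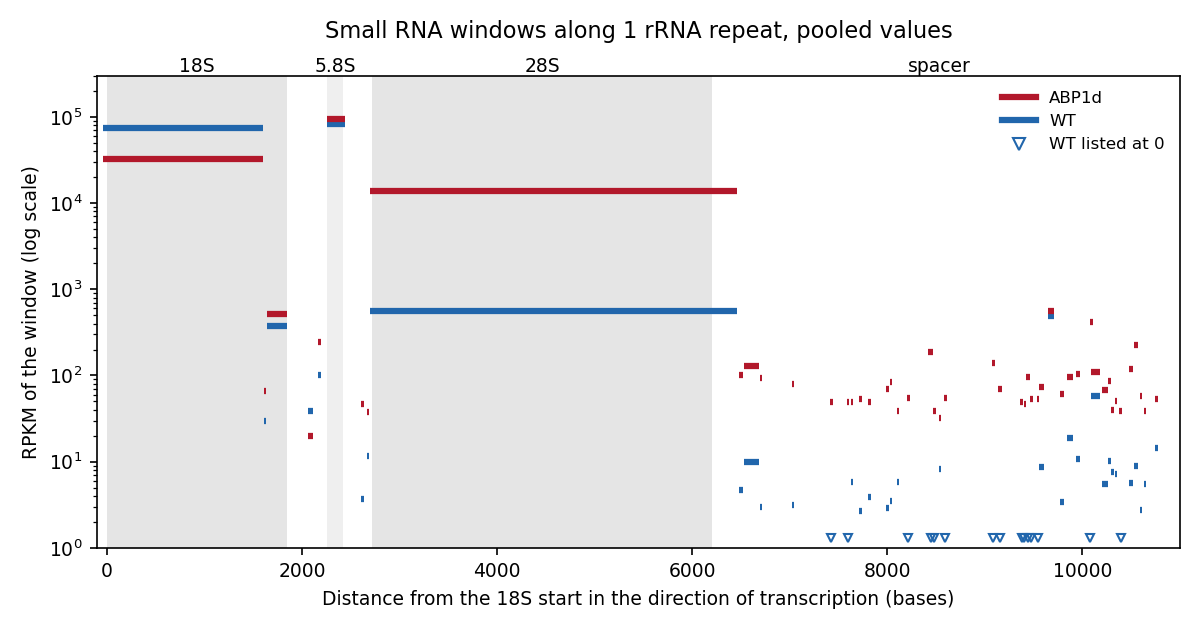
RPKM of each window without an A/T run (y axis, log scale) along 1 repeat. The x axis gives the distance from the 18S start in the direction of transcription, in bases. ABP1d is red and WT blue, with grey bands for the genes and open triangles where WT is listed at 0. Scaled to the strain totals, ABP1d lies below WT on the main 18S window, close to it on 5.8S and above it on 28S and in the spacer windows shown.

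The 18S rRNA, the RNA of the small subunit, had less small RNA in ABP1d under every scaling tried. Its main window (10662 to 12303) had 1252469 reads in ABP1d and 1768236 in WT. On the RPKM scale this was 32026 in ABP1d and 74442 in WT, a level 2.32-fold higher in WT (2.32 to 2.33), with p = 0 in the authors' deposited table. The ABP1d to WT ratio of 0.430 fell to between 0.272 and 0.111 under the other scalings. The strain lists show where in the gene these reads lay. In WT a region of 291 bases at 11976 to 12266, from 6 bases before the annotated 18S start to base 285 of the gene, held 1754743 reads, or 99.2% of the window (99.2 to 99.2). In ABP1d a region of 522 bases at 11772 to 12293, from 33 bases before the start to base 489, held 1228514 reads, or 98.1% (98.1 to 98.1). The small RNAs of 18S thus came almost wholly from its 5′ end in both strains. The listed ABP1d region was longer on both sides. The RPKM of these regions was 98814 in ABP1d and 416842 in WT, 110 and 604 times the level of the rest of the window in the same strain.

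Relative to the strain totals, 18S was lower in ABP1d in that 5′ stretch and not in the rest of the gene as a whole. Within that rest, the part up to base 1001 of the gene was lower too. Since the WT region lies inside the ABP1d region, WT held between 1754743 and 1768236 reads on the 522 bases, which puts WT 2.35-fold to 2.37-fold higher there. Outside these 522 bases the window had 23955 reads in ABP1d and at most 13493 in WT, so that ABP1d was at least 1.08-fold higher (1.06 to 1.10). Under each of the other scalings this bound was below 1 (0.682 to 0.277), and the bound alone gives no direction. The incomplete copy at the right end, identical to the first 1001 bases of the gene in all 1001 positions, allowed a finer division: it had 1238701 reads in ABP1d and 1764333 in WT. The difference from the complete window, 13768 reads in ABP1d and 3903 in WT, belongs to bases 10662 to 11259, where ABP1d was 2.14-fold higher (2.07 to 2.22). Reads across the end of the incomplete copy fall into this difference too. Between that stretch and the ABP1d 5′ region, 10187 reads remained in ABP1d and at most 9590 in WT. The ratio was at least 0.645. WT had at least 8665 reads there, those of a listed region of the incomplete copy (2452621 to 2452892). This was 428 RPM in ABP1d and at least 599 RPM in WT, so ABP1d was lower, also under the other scalings. With these 8665 and the 3903 reads above, the part of the window outside the 522 bases was lower in ABP1d under each of the other scalings.

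Further towards the 3′ end of 18S, both remaining windows were higher in ABP1d. The window at 10411 to 10618, which spans the end of the gene, had 515 RPKM in ABP1d and 376 in WT (ratio 1.37, 1.28 to 1.47). The window at 10630 to 10655 had 41 reads in ABP1d and 11 in WT (ratio 2.26, 1.14 to 4.88). Along the gene, the ratio to the strain totals therefore turned from below 1 at the 5′ end to above 1 in the 3′ part. The direction of these 3′ values depends on the scaling: with 5S, tRNA or snRNA windows centred each of them was below 1, and the 1.37 became 0.868 with the rRNA reads left out of the totals, whereas the contrast between the 5′ end and the rest does not change with scaling. Each strain also had a second listed region in the inner part of the gene. In ABP1d it lay at 10901 to 11471 (bases 790 to 1360 of the gene) with 21081 reads and 1550 RPKM, and in WT at 11152 to 11524 (bases 737 to 1109) with 9299 reads and 1723 RPKM. These inner regions held 88.0% of the ABP1d reads and 68.9% of the WT reads outside the respective 5′ region. Their bounds differ, so their RPKM values are set side by side without a comparison.

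**Figure D3:**
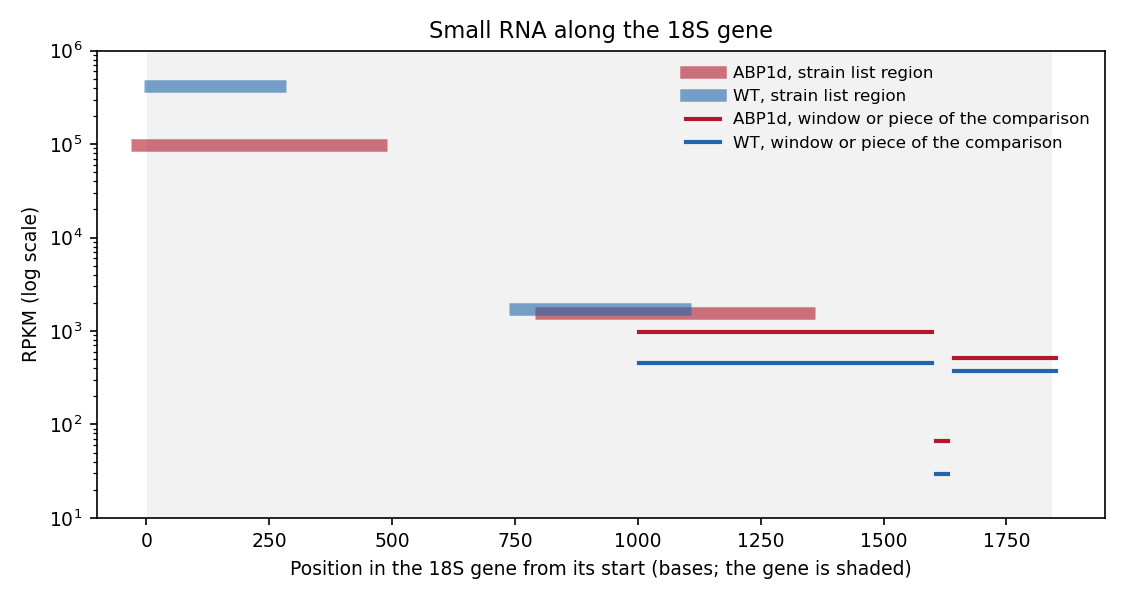
RPKM (y axis, log scale) along the 18S gene from its start (x axis, bases; gene shaded), with thick bars for the regions of the strain lists and thin lines for windows or pieces of the comparison, ABP1d in red and WT in blue. At the 5′ end WT stands above ABP1d, and in the 3′ pieces ABP1d stands above WT (2.14-fold, 2.26-fold and 1.37-fold), a direction that turns with 5S, tRNA or snRNA windows centred.

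The 5.8S rRNA, which pairs with 28S in the large subunit, had similar levels in both strains relative to the strain totals, but not under other scalings. Its window (9816 to 10009) had 431860 reads in ABP1d and 229991 in WT, or 93465 and 81952 RPKM. The ratio was 1.14 (1.13 to 1.15), with p = 0 in the authors' deposited table. Under the 4 other scalings tried the ratio was below 1, from 0.721 to 0.293, so no direction is given. The strain lists placed nearly all of it on the gene itself: the ABP1d region (9826 to 10008) held 431859 reads and the WT region (9816 to 10008) held 229991. Both reached 2 bases before the annotated start. In the right unit both began at the annotated start (2443248), so these 2 bases lie within the uncertainty of the edges. Past the annotated end the ABP1d region reached 16 bases and the WT region 26 bases into ITS2.

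The 28S rRNA, the large RNA of the large subunit, had far more small RNA in ABP1d. Its single window (5805 to 9559) had 1240668 reads in ABP1d and 30555 in WT. On the RPKM scale it stood at 13872 in ABP1d against 563 in WT, 24.7-fold higher (24.4 to 24.9), with p = 0 in the authors' deposited table. ABP1d was higher under all 4 other scalings, with the lowest ratio at 6.34. Relative to the strain totals this was the largest difference of the 3 genes, but with tRNA or snRNA windows centred the 18S difference was larger (8.32-fold and 9.04-fold higher in WT, against 6.89-fold and 6.34-fold higher in ABP1d for 28S). The window runs from 18 bases before the annotated start to 252 bases past the annotated end, so part of the downstream spacer is included in it. In the ABP1d list 28S formed 1 unbroken region with the same bounds. In the WT list a region of 265 bases alone (9280 to 9544), from 3 bases before the start to base 262, passed the authors' limits. That region held 10308 of the 30555 WT reads (33.7%, 33.2 to 34.3) at 2689 RPKM, which was 6.70 times the 401 RPKM of the rest of the window. The WT small RNAs of 28S were thus denser in this 5′ region than on average over the rest of the window. The ABP1d list gives no division of the gene, so a matching profile was not available for that strain.

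The internal transcribed spacers carried few small RNAs, and the strains did not differ in 1 direction there. Their 4 windows are shown because they are the complete set without an A/T run.
ITS1 near 5.8S (chr3:10066-10102, minus strand): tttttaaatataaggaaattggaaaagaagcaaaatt
ITS1 middle (chr3:10145-10203, minus strand): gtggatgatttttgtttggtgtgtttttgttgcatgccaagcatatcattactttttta
ITS2 middle (chr3:9635-9653, minus strand): tttgatagaaaaaaagaaa
ITS2 near 28S (chr3:9580-9597, minus strand): ttatatttgaaccttaac
In ITS1 the window near 5.8S had 216 reads in ABP1d and 54 in WT, or 245 and 101 RPKM (ratio 2.43, 1.80 to 3.34). The middle window had 28 and 33 reads, or 19.9 and 38.7 RPKM, a level 1.94-fold higher in WT (1.14 to 3.33) with p = 0.0147 in the authors' deposited table. This was the 1 window outside the 18S genes, and without an A/T run, that was lower in ABP1d in this unit. In ITS2 the counts were 21 against 1 (ratio 12.8, 2.05 to 527) and 16 against 3 (ratio 3.24, 0.927 to 17.3). Summed, the 4 windows had 281 reads against 91 (ratio 1.88, 1.48 to 2.40). It fell below 1 with 5S, tRNA or snRNA windows centred.

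Relative to the strain totals, the spacer between the genes of neighbouring repeats had more small RNA in ABP1d in every listed window but the A/T-run window. That window was lower in ABP1d and held 89.3% of the ABP1d and 97.2% of the WT spacer reads. All 41 windows without an A/T run were higher in ABP1d, 39 of them at least 2-fold with 0 reads set to 3 (95.1%, against 79.9% of all 4012 listed windows). WT was listed at 0 in 15 of the 41 (36.6%), against 42.7% of all listed windows, so a 0 in WT was not more frequent here than in the whole table. The median log2 ratio was 3.09, and 2.09 over all listed windows, with 0 reads set to 3. The windows covered 1400 of the 4666 bases. Levels were low, from 32.1 to 556 RPKM in ABP1d (median 61.4) and from 0 to 493 RPKM in WT (median 3.37). The interval lay wholly above 1 in 39 of the 41 and reached 1 or below in the other 2. Only windows that passed a limit on the authors' deposited p are listed, so intervals that exclude 1 largely follow from that choice. With snRNA windows centred, 36 of the 41 were higher. The windows of this spacer that are described individually read as follows, with positions counted upstream of the neighbouring 18S start.
301 to 339 upstream (chr3:1691-1729, minus strand): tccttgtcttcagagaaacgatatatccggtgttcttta
690 to 785 upstream (chr3:2080-2175, minus strand): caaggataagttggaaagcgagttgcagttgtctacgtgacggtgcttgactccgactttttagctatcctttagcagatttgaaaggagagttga
970 to 1032 upstream (chr3:2360-2422, minus strand): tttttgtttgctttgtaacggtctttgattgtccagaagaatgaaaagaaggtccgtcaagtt
2402 to 2450 upstream (chr3:3792-3840, minus strand): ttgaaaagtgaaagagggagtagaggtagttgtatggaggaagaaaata
4184 to 4344 upstream (chr3:5574-5734, minus strand): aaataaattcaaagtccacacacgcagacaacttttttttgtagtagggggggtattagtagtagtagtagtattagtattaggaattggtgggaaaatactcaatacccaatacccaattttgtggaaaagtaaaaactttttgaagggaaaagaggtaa

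The summed difference of the spacer rested on which windows were counted. Summed over the 41 windows, ABP1d had 3717 reads and WT 632 (ratio 3.57, 3.28 to 3.89). It fell to 0.998 with tRNA windows centred and to 0.919 with snRNA windows centred. With windows holding an A or T stretch of 10 or more bases set aside as well, which takes out 1 more window, the ratio was 9.90 (8.50 to 11.6). That window held 72.2% of the WT and 22.8% of the ABP1d spacer reads, so any sum that includes it, by distance or by annotation, rests largely on it in WT. The A/T-run window set aside in this spacer (4722 to 4765) had 30977 reads against 21574 (ratio 0.872, 0.857 to 0.887). The part of A/T runs in these values was not tested. Its 28-base run, in capitals, is shown because its reads exceed those of all other windows of the spacer together.
A/T-run window (chr3:4722-4765, minus strand): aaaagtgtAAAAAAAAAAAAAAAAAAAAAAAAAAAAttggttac

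Ratios of single spacer windows varied widely. The window at 690 to 785 bases upstream of 18S had a low one, with 250 reads in ABP1d and 81 in WT (ratio 1.87, 1.45 to 2.44), and it holds no A or T run above 5 bases. Closer to 18S, the window at 301 to 339 had 212 reads against 5 (ratio 25.8, 10.9 to 80.1). At 970 to 1032 the counts were 145 and 17 (ratio 5.18, 3.13 to 9.14). The window at 2402 to 2450 had 221 reads in ABP1d and 0 in WT, at least 44.7-fold higher when the WT count is set to a floor of 3 over the pooled strain. The window at 4184 to 4344, next to the neighbouring 28S, had 496 reads against 23 (ratio 13.1, 8.63 to 20.9).

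By distance from 18S, ABP1d was higher relative to the strain totals in each stretch of the spacer, with the A/T-run window set aside. That window, at 3332 to 3375 bases upstream, had 30977 reads in ABP1d and 21574 in WT (ratio 0.872). It is left out of the stretch from 3001 to 4000 bases. The first 1000 bases upstream of 18S had 979 reads in ABP1d and 115 in WT (ratio 5.17, 4.26 to 6.33), and the next 1000 had 1514 and 481 (ratio 1.91, 1.72 to 2.12). The latter became 666 and 25 (ratio 16.2, 10.9 to 25.2) with A or T stretches of 10 or more bases set aside, a setting added after the data were seen, so the 1.91 rests on 1 window. The median log2 ratio was 2.80 and 2.91 in these first stretches, again with 0 reads set to 3. From 2001 to 3000 bases the counts were 412 and 5 (ratio 50, 21.3 to 155), and from 3001 to 4000 bases 160 and 4 (ratio 24.3, 9.31 to 90.3). From 4001 to 4666 bases, next to the end of the neighbouring 28S, the counts were 652 and 27 (ratio 14.7, 9.99 to 22.4). In these last 3 stretches the WT counts are so low that the intervals overlap and give no order. The longest row of windows without WT reads, picked for that, was 8 windows between 1321 and 2293 bases upstream, with 424 reads in ABP1d.

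**Figure D4:**
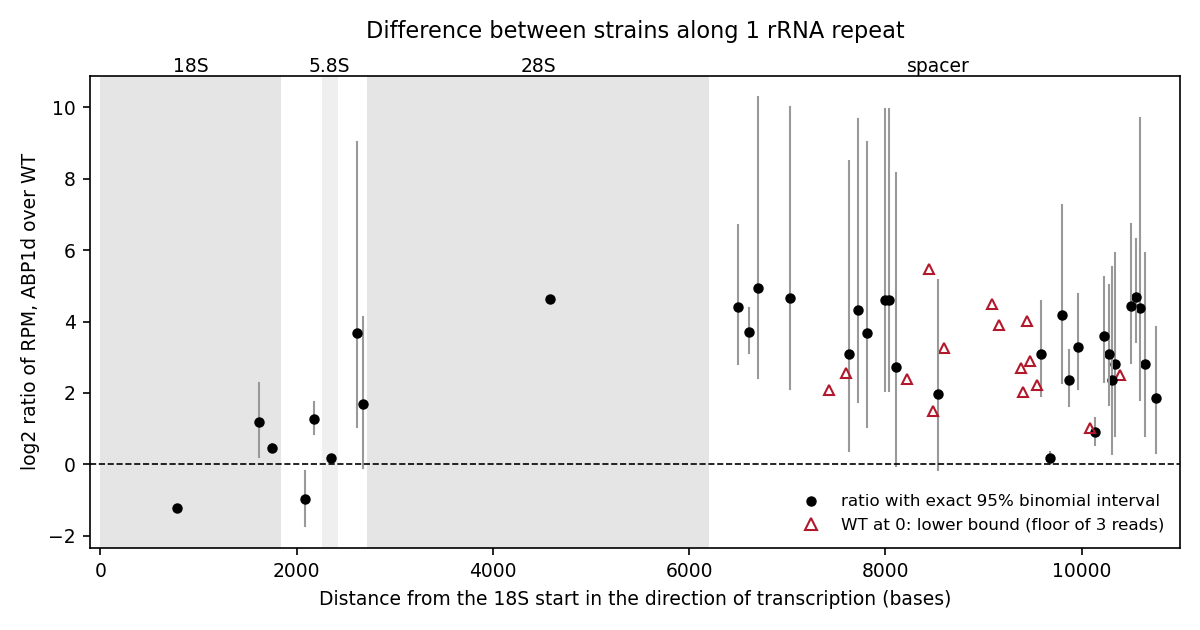
log2 ratio of RPM, ABP1d over WT (y axis), for each window of 1 repeat without an A/T run. The x axis gives the distance from the 18S start in the direction of transcription, in bases. Points have exact 95% binomial intervals, and open triangles are lower bounds where WT has 0 reads. The A/T-run window of the spacer, not shown, had a log2 ratio of -0.197. The main 18S window and the middle ITS1 window lie below 0, the 28S window lies at 4.62, and all 41 spacer windows shown lie above 0 (36 with snRNA windows centred).

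The spacer is annotated with long noncoding RNAs, and outside the A/T-run window the small RNAs on them were scarce in WT. That window (4722 to 4765) lies on both SPNCRNA.6666 and SPNCRNA.6668, with 30977 reads in ABP1d and 21574 in WT. It is left out of all counts below. SPNCRNA.6666 (3276 to 4907, minus strand) had 530 reads in ABP1d and 8 in WT over 13 windows (ratio 40.2, 20.3 to 93.7). SPNCRNA.6665 (2667 to 2886, plus strand) had 276 reads and 6 over 6 windows, a ratio of 27.9 (12.7 to 76.8). SPNCRNA.6668 (4367 to 5198, plus strand) had 118 and 3 over 5 windows, a ratio of 23.9 (7.98 to 118). SPNCRNA.6667 (3857 to 4057, plus strand) had 1 window with 26 reads against 0. Strand was kept in the libraries, per the labels, but is not recorded in the files, and SPNCRNA.6666 overlaps both SPNCRNA.6667 and part of SPNCRNA.6668, so their reads cannot be told apart. Windows on any of them numbered 19, with 806 reads against 14 (ratio 35.0, 20.7 to 64.3). The 22 windows on none of them had 2911 against 618 (ratio 2.86, 2.62 to 3.13), which became 2063 against 162 (ratio 7.73, 6.59 to 9.13) with A or T stretches of 10 or more bases set aside. The median log2 ratio per window ran the other way, 2.91 on the noncoding RNAs and 3.44 on none, so the sums and the medians give no common order.

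Downstream of 28S, listed windows met the sequence that binds Reb1, the factor known in fission yeast to stop RNA polymerase I at the end of the repeat. The 9-letter core AAGGGTAAT was searched on both strands, with no other motif, and occurred 2 times in the unit, both on the transcribed minus strand, at 299 to 307 and at 482 to 490 bases past the 28S end. It is present in 0.0452% of all 44-base stretches of the 3 chromosomes and in 3 of the 4012 listed windows, which are the 3 copies of the same place. Both places are shown with the core in capitals.
Nearer 28S (chr3:5742-5785, minus strand): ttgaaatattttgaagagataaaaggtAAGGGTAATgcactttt
Farther from 28S (chr3:5547-5595, minus strand): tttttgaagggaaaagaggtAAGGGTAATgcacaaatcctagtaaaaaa
The nearer core lies inside a window with 105 reads in ABP1d and 3 in WT (ratio 21.3, 7.08 to 105). The 28S window ends 252 bases past the gene, before this core. The farther core covers the gap between 2 windows, 5574 to 5734 with 496 reads against 23 (ratio 13.1, 8.63 to 20.9) and 5548 to 5570 with 51 against 1 (ratio 31.0, 5.32 to 1247). Small RNAs were thus listed on either side of both cores in ABP1d. A match of letters is a description and says nothing of binding in these cells.

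The other copies gave the same picture, as they share the sequence. The second left unit is identical to the first in 12259 of 12260 positions, and 50 of the 51 windows without an A/T run recurred there at the same place with the same reads; the incomplete 18S copy has no counterpart. At the right end the 18S, 5.8S and 28S genes are identical to the left ones, ITS1 is 99.5% and ITS2 99.3% identical, and the spacer is 99.1% identical with 4685 bases. Of the 54 right windows without an A/T run, 40 had the same reads as a left window. These values are therefore not replicates. The right end differed in its spacer, where 2447741 to 2447805 was listed with 227 reads against 2 and the matching left place had no window. It consists of short repeats of the letters GTAG, and is shown for that reason.
Right spacer (chr3:2447741-2447805, plus strand): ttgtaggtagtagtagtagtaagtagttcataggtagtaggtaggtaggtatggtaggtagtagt
On the long noncoding RNA SPNCRNA.1299 (2448764 to 2449506, plus strand) 6 windows had 352 reads against 3 (ratio 71.3, 24.2 to 347). Without A/T-run windows, the right spacer had 3991 reads against 644 over 44 windows, all higher (ratio 3.76, 3.46 to 4.10). Its 2 A/T-run windows were lower in ABP1d.

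Window edges are known to about 2 bases. All 37 pairs of windows with the same reads and length at both ends were 2 bases apart after the right end was aligned to the left. The last listed window ends 9 bases past the assembled end of the chromosome. Some windows are shorter than a read, down to 1 base with 10 reads, so edges are not read ends. The repeat sequence also goes on past 23130, identical to the spacer for 1440 bases, and there 19 of 21 windows within 3000 bases carried the same reads as their spacer counterparts, all 19 higher in ABP1d. On the inner side of the right copy, 16 of 21 windows did so.

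Elsewhere in the genome, 274 windows on annotated genes with at least 1000 reads and no A/T run were compared by how close their log2 ratio lay to that of each rRNA gene. This likeness is a single ratio from 2 pooled values. The 28S gene stood at 4.62, and the closest windows were on tRNA genes: SPATRNAALA.06 at 3.88, SPBTRNAGLN.04 at 3.78 and SPBTRNAGLN.02 at 3.72. Of 280 windows with at least 1000 reads, 68 had a higher ratio than 28S and 212 a lower one. The 18S gene stood at -1.22, where the 3 closest windows were copies of 1 centromeric window on SPNCRNA.7212, SPNCRNA.7216 and SPNCRNA.7221, each with 800 reads in ABP1d and 1130 in WT. The 5.8S gene stood at 0.19, near SPNCRNA.234 at 0.20 and srp7 at 0.23.

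Some genes for the machinery of the repeats had listed small RNA windows. They were 4 of 21, where 13.2% of all annotated genes had one (1665 of 12574), and all 6 windows were higher in ABP1d, as were 82.9% of all listed windows. Among 6 genes of RNA polymerase I and its factors, nuc1, which encodes the largest subunit of that polymerase, had 27 reads against 0, and rpa2, rrn3, rrn7, reb1 and sap1 had no window. Among 9 genes of pre-rRNA processing, both copies of the U3 small nucleolar RNA, which is needed for cleavage of the precursor around 18S, had windows: snu3 with 374 reads against 79 (ratio 2.88, 2.25 to 3.71) and snu32 with 526 against 121 (ratio 2.64, 2.16 to 3.24). The other 7, among them pac1 for the RNase III that cuts the 3′ external spacer and rrp6 and dis3 of the exosome, had none. Among 6 silencing genes swi6, the heterochromatin protein HP1, had 50 reads against 10 (ratio 3.04, 1.52 to 6.72), and ago1, dcr1, rdp1, clr4 and sir2 had no window. A gene without a listed window may have small RNAs that did not differ or were too few to be listed.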

How the data were processed

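Small RNA was sequenced from 2 ABP1d and 2 WT libraries. Libraries were made from acid-phenol total RNA with size selection, per the labels' protocols; Bowtie 0.12.5 appears in the submitters' processing notes. The sources used here name no build, filter, region caller or test, and do not say how reads with several matches were placed. The authors deposited RPKM values pooled per strain, and a deposited p-value per region, without strand or headers; list regions shared with the comparison had equal values in the first column for ABP1d (7 of 7) and in the second for WT (124 of 124). Deposited p-values of the comparison reach 0.0494, so it lists only windows that passed a limit on p.

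Printed starts are 1 above the deposited ones, as a browser shows them. Reads were recovered to within 1e-06. Ratios of RPM have exact (Clopper-Pearson) intervals (scipy 1.17.1); 0 reads were set to a floor of 3 over the pooled strain. Windows took the gene they overlap by at least 1 base, otherwise the spacer they lie in. Copies were aligned with Biopython 1.88. The steps were tested on simulated data. Named windows are those of at least 1000 reads, the main and edge windows of each gene, and spacer windows with most reads or extreme ratios (at least 50 reads). Windows of the Reb1 core, the right end and the stretch without WT reads were named after their values were seen, and the division of 18S was chosen then too. Members and lists were chosen with earlier results of these data known. No count test could be made, as the files hold no reads per library. 1 spacer window that the rule selects, and its copies, are not reported individually here.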

Additional observations from a re-analysis of the deposited data

How the results depend on the processing

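The values are pooled, so leaving out a library was not possible. No paired analysis was possible because the files hold 1 pooled value per strain. Under other scalings each log2 ratio fell by 0.66 (totals without rRNA repeat reads), fell by 1.25 (5S windows centred), fell by 1.84 (tRNA windows) and fell by 1.96 (snRNA windows); listed windows all differ, so none of these is known to be a stable reference. In that order, the 18S ratio became 0.272, 0.181, 0.120 and 0.111 and the 28S ratio 15.6, 10.4, 6.89 and 6.34, with the same direction. The 5.8S ratio reversed to 0.721, 0.479, 0.319 and 0.293. The internal spacer ratio became 1.19 and then reversed to 0.788, 0.524 and 0.482, and the spacer ratio became 2.26, 1.50, 0.998 and 0.919, the last 2 reversed.

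By the strain lists the 28S ratio was 73.1, as the WT region covers 265 bases and the ABP1d region 3755. With windows overlapping an interval by 1 base, which brings in the gene windows, the internal spacer ratio was 3.89 and the spacer ratio reversed to 0.843. With a deposited p of at most 0.001 they were 2.62 and 10.3. The spacer ratio reversed to 0.949 with A/T-run windows kept and was 9.90 with runs of at least 10 bases set aside. The number of higher spacer windows stayed within 1.5 times under each of the 11 alternatives, from 32 to 44. The second left unit gave the same values, and the right end moved no ratio out of its interval. Depth limits the internal spacers (91 WT reads in all) and the spacer stretches with 4 or 5 WT reads.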
